A study of Mus musculus with 11 samples.

Results

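The m6A writers, erasers and readers were taken as 10 genes, chosen by name: the writers Mettl3, Mettl14 and Wtap, the erasers Fto and Alkbh5, and the YTH domain readers Ythdf1, Ythdf2, Ythdf3, Ythdc1 and Ythdc2. Their Ensembl identifiers were matched to mouse gene symbols on GRCm38, and all 10 were found among the 54838 genes counted and among the 16073 that passed the filter on low counts. N6-methyladenosine (m6A) is the most common internal modification of mRNA. A nuclear complex of METTL3, METTL14 and WTAP adds it, FTO and ALKBH5 remove it, and proteins with a YTH domain bind it and direct the splicing, export, translation or decay of the marked RNA. In embryonic stem cells (ESCs) the mark is known for shortening the life of transcripts of pluripotency factors, and cells without METTL3 leave the naive state poorly.

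RNA was sequenced from E14 cells, an established mouse ESC line, kept on gelatin in serum replacement medium with LIF, the cytokine that holds them in the pluripotent state. Cells received control scramble siRNA (3 libraries), CMTR1 siRNA 1 (4 libraries) or CMTR1 siRNA 2 (4 libraries), and RNA was taken at 36 h in every group. CMTR1 methylates the ribose of the first nucleotide of a transcript, next to the cap. Where that nucleotide is an adenosine, PCIF1 can add a further methyl group to its base, which gives m6Am, and FTO can take this group off.

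Counted reads per library ran from 6738478 to 8382318, and values are given as CPM, the counts scaled to library size. Cmtr1, the targeted gene, stood at 20.3 ± 2.1 CPM (SD, n = 3) in control, 19.2 ± 2.45 (n = 4) with siRNA 1 and 17.1 ± 1.68 (n = 4) with siRNA 2. The libraries of the groups overlapped and neither difference passed the test (edgeR quasi-likelihood test, adjusted p = 0.743 and 0.144), so the groups are called by their labels only. All 8 ESC markers examined were above 1 CPM in each group, and their summed level was 1916.3 to 2019.4 CPM in control, 1644.4 to 1809.8 with siRNA 1 and 1730.6 to 1808.5 with siRNA 2. A list of 6 fibroblast markers summed to 24.3 to 30.6, 26.9 to 30.8 and 33.8 to 39.1 CPM in the same order. Over all 11 libraries together, 4 of the 6 had a median above 1 CPM, with Postn at a median of 0. Among neural, endoderm, mesoderm and trophectoderm markers, 4 of each, 3, 3, 2 and 3 had a median above 1 CPM over all 11 libraries. Neurog2 and Elf5 had a median of 0. The neural list summed to 87.4 to 93.9 CPM in control, 93.6 to 106.4 with siRNA 1 and 77.3 to 99.1 with siRNA 2. Endoderm markers summed to 11.4 to 20.4 CPM over the 3 groups and mesoderm markers to 4.8 to 8.6. Trophectoderm markers summed to 47.1 to 56.7 CPM in control, 51.3 to 55.2 with siRNA 1 and 47.0 to 48.9 with siRNA 2. The part of these marker levels in the results that follow was not tested, and in bulk RNA fewer cells of a type and less RNA per cell cannot be told apart. Both CMTR1 comparisons share the same 3 control libraries. The methods give 3 biological replicates for PCR or sequencing, while each CMTR1 siRNA has 4 libraries. The labels do not say which libraries came from separate cultures, so the p-values measure the spread between these libraries, which may be technical in part.

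Since CMTR1 acts on the nucleotide next to the cap, the annotated starts of the m6A genes are shown for the 7 with an entry in the RefSeq promoter table (GRCm38.p6). Each line has 10 bases upstream, the base at the annotated start in capitals and the 14 bases after it, on the strand of the gene.
Mettl3, chr14:52305110-52305134, minus strand: ttcgccaaccGgaagtggcttttca
Wtap, chr17:12992529-12992553, minus strand: gacctccgacCtcgcgggcccgccc
Fto, chr8:91313515-91313539, plus strand: ggcggggtccAgggcgagggggaac
Alkbh5, chr11:60537673-60537697, plus strand: ggggcggactGggttgtggcgattc
Ythdf1, chr2:180920922-180920946, minus strand: gcgtagcttcGtcccagccgccgcg
Ythdf2, chr4:132212242-132212266, minus strand: cccttccgcgTgggtcagcgactgt
Ythdc1, chr5:86804256-86804280, plus strand: ctccattttaGcgccgcccggcgtc
Of these starts, 4 were at G, 1 at A, 1 at C and 1 at T, where 35.6% of the 32851 starts in the table were at G, 34.4% at A, 16.3% at C and 13.7% at T. The start at A was that of Fto. For Wtap the table listed 3 starts, and that in chr17:12992245-12992269 was at A. An annotated start says nothing of where transcription began in these cells. No sequence is shown for Mettl14, Ythdf3 and Ythdc2.

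In the control cells Ythdf1, Ythdf2 and Ythdf3 were the most abundant of the 10 genes per length of exon. The level per kilobase of all annotated exons was 53.5 ± 1.62 CPM (SD, n = 3) for Ythdf1, 33.3 ± 0.281 for Ythdf2 and 29.6 ± 1.47 for Ythdf3. The m6A eraser Alkbh5 followed at 22.2 ± 0.643 CPM per kilobase, and Wtap, the subunit that holds the writer in nuclear speckles, at 16.7 ± 1.07. Ythdc1, the nuclear reader, stood at 11.3 ± 0.537 and Fto at 6.90 ± 0.258 CPM per kilobase. At the foot of the order were Mettl14, the RNA-binding partner of the enzyme, at 5.71 ± 0.521, Mettl3, the catalytic subunit, at 5.16 ± 0.0861, and Ythdc2, a helicase with a YTH domain known from meiosis, at 4.91 ± 0.512 CPM per kilobase. The control libraries of neighbours in this order did not overlap, except those of Mettl14 with Mettl3 and of Mettl3 with Ythdc2. All 10 were above the median of tested genes, 4.74 CPM per kilobase, with Ythdc2 at percentile 50.9 and Ythdf1 at percentile 95.1. The order depended on the length used. Per kilobase of the longest transcript Ythdf1 and Ythdf2 stayed at the top, with 55.7 and 36.8 CPM, but Wtap came next at 32.8 and Mettl3, at 12.1, stood above Ythdc2 at 6.04 and Mettl14 at 5.88.

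**Figure D1:**
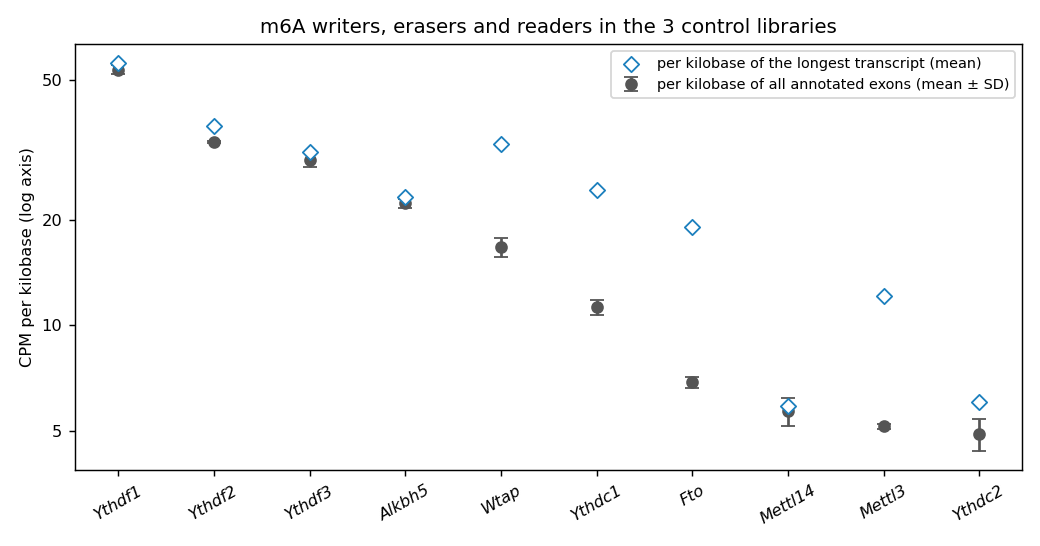
Level of the 10 m6A genes in the 3 control libraries, as CPM per kilobase on a log axis. Filled circles are the mean ± SD per kilobase of all annotated exons and open diamonds the mean per kilobase of the longest transcript. Ythdf1 lies at the top with either length. All 10 genes lie higher with the longest transcript, Wtap, Ythdc1, Fto and Mettl3 by the most on this axis.

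None of the 3 writers passed the test with either siRNA. Mettl3 (ENSMUSG00000022160, chromosome 14, 52294841 to 52305128) was at 26.2, 25.8 and 26.6 CPM in control. It was at 30.4, 28.5, 26.9 and 28.7 CPM with siRNA 1 and at 26.6, 26.1, 23.1 and 27.7 CPM with siRNA 2. Each siRNA 1 library was thus above each control library, while the siRNA 2 libraries lay on both sides of control. For siRNA 1 its log2 fold change was 0.13, with an SE of 0.084 and a 95% interval from −0.036 to 0.29 (adjusted p = 0.467). For siRNA 2 it was −0.017, with an SE of 0.085 and an interval from −0.18 to 0.15 (adjusted p = 0.938). These values come from 171 to 229 reads per library. Mettl3 shares 933 bases, 18.4% of its exon sequence, with Tox4 on the opposite strand, and Tox4 had 256 to 379 reads per library. The library kit keeps the strand, but the strand setting of the counting is not given in the sources used here, so some reads of the pair may not be told apart.

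Mettl14 (ENSMUSG00000028114, chromosome 3, 123368297 to 123386108) stood at 43.8, 45.3 and 38.0 CPM in control. With siRNA 1 it was at 37.2, 41.6, 39.5 and 36.1 CPM, and with siRNA 2 at 37.5, 39.6, 40.3 and 40.4 CPM. The third control library lay within the range of both siRNA groups and the other two lay above them. Its log2 fold change was −0.13 (SE 0.074, adjusted p = 0.367) with siRNA 1 and −0.10 (SE 0.074, adjusted p = 0.418) with siRNA 2, with intervals from −0.28 to 0.012 and from −0.25 to 0.041. Wtap (ENSMUSG00000060475, chromosome 17, 12966796 to 12994169) had the same layout. Its control libraries were at 106, 110 and 97.2 CPM, those of siRNA 1 at 92.8, 99.3, 95.8 and 98.2, and those of siRNA 2 at 98.9, 97.8, 94.9 and 101. Its log2 fold change was −0.11 (SE 0.055, adjusted p = 0.278) and −0.090 (SE 0.055, adjusted p = 0.328). Part of the Wtap sequence is repeated elsewhere: 3.43% of its 75-nt words, the read length, also occur in other genes.

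Because METTL3 and METTL14 work as a pair, their levels per kilobase of exon were set against each other within each library. The ratio of Mettl14 to Mettl3 was 1.15, 1.20 and 0.975 in control. It was 0.838, 0.998, 1.00 and 0.859 with siRNA 1 and 0.966, 1.04, 1.20 and 0.999 with siRNA 2. The lowest 2 ratios of the 11 were both from siRNA 1 libraries, and the groups overlapped. On the log2 scale the ratio differed from control by −0.26 for siRNA 1 and by −0.076 for siRNA 2 (exact permutation tests, two-sided, p = 0.171 and 0.571), where 3 against 4 libraries cannot go below 0.0571. Between the siRNAs it differed by 0.18 (exact p = 0.143). With the longest transcript as length the ratio was 0.367 to 0.527 in all libraries, so which of the pair is more abundant depends on the length chosen, while the differences between groups do not.

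Of the erasers, Alkbh5 (ENSMUSG00000042650, chromosome 11, 60536381 to 60558512) rose with siRNA 2, while Fto did not pass the test with either siRNA. Alkbh5 was at 132, 138 and 130 CPM in control. With siRNA 1 it was at 132, 142, 138 and 137 CPM, and with siRNA 2 at 168, 165, 144 and 144 CPM. All 4 siRNA 2 libraries were above all other libraries, and those numbered 1 and 2 were well above the other two. For siRNA 2 this was a log2 fold change of 0.22, with an SE of 0.055 and an interval from 0.11 to 0.33 (adjusted p = 0.00614), a level 16.5% above control. For siRNA 1 it was 0.045, with an SE of 0.055 and an interval from −0.063 to 0.15 (adjusted p = 0.748). The difference between the siRNAs was itself called, at 0.17 (SE 0.050, adjusted p = 0.0244).

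In the siRNA 2 libraries numbered 1 and 2, the pair high in Alkbh5, 39.9% and 39.3% of all reads listed, counted or set aside, fell in no gene. These were the lowest shares of the 10 libraries for which this is listed, the other 8 having 41.0% to 44.3%. The share for siRNA 2 library 4 was not listed, and the part of this in the result was not tested. With that pair left out, a choice made after the values were seen, Alkbh5 was at a log2 fold change of 0.11 from control (adjusted p = 0.277) and 0.067 from siRNA 1 (adjusted p = 0.572). Leaving out single libraries kept the call of siRNA 2 against control, at 0.18 to 0.25. The call between the siRNAs was lost without siRNA 2 library 1 (0.14, adjusted p = 0.143) or 2 (0.14, adjusted p = 0.0986) and without siRNA 1 library 1 (0.16, adjusted p = 0.0807) or 4 (0.17, adjusted p = 0.0576). DESeq2 did not call it, at an adjusted p of 0.0551.

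Fto (ENSMUSG00000055932, chromosome 8, 91313525 to 91668439) was at 87.0, 89.1 and 93.5 CPM in control, at 88.0, 92.1, 83.3 and 93.7 with siRNA 1 and at 81.4, 84.7, 92.6 and 90.0 with siRNA 2. The 3 groups overlapped throughout. Its log2 fold changes were −0.0081 for siRNA 1, with an interval from −0.12 to 0.11 (SE 0.058, adjusted p = 0.966), and −0.042 for siRNA 2, with an interval from −0.16 to 0.072 (SE 0.058, adjusted p = 0.721).

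**Figure D2:**
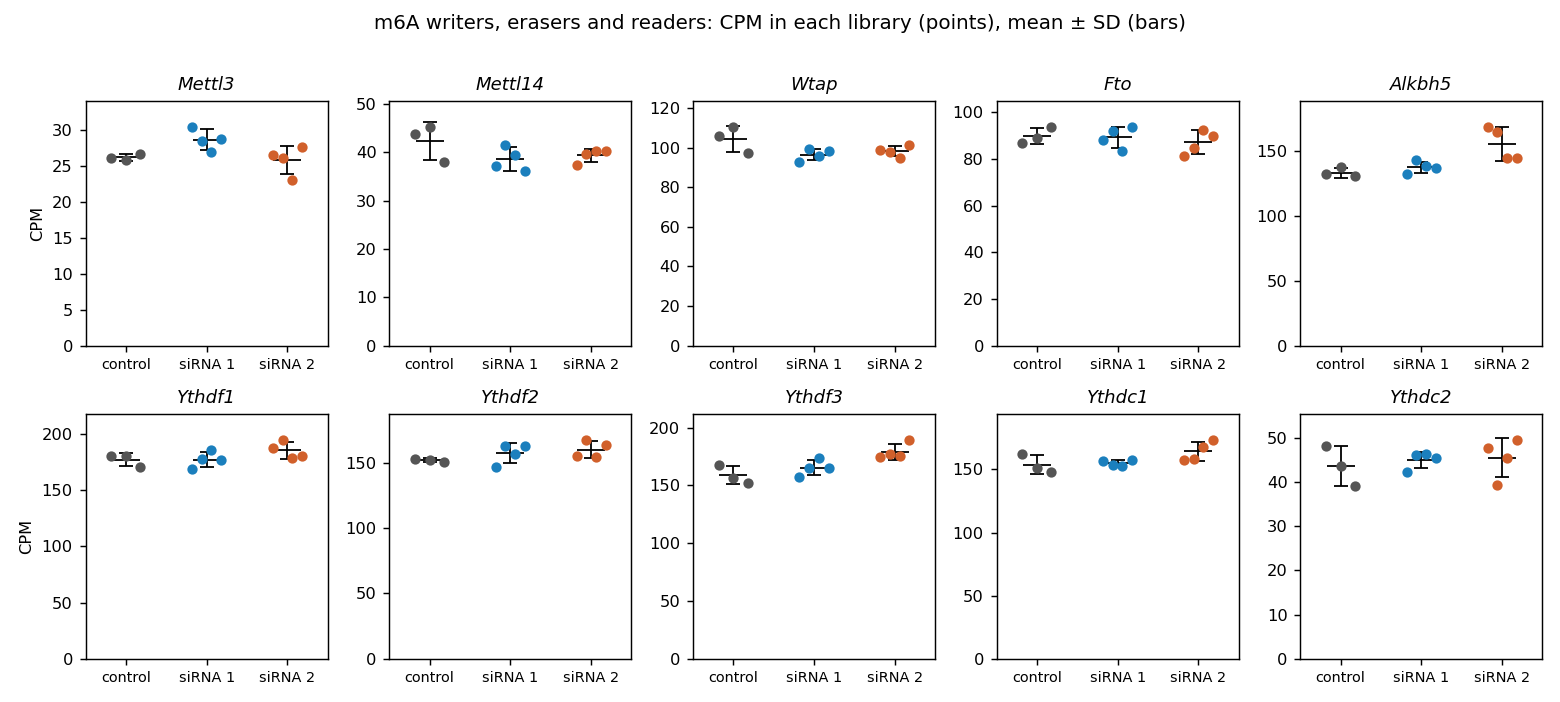
CPM of the 10 m6A genes in each of the 11 libraries, on axes that start at 0, with 1 panel per gene. Points are libraries and bars are the mean ± SD of control (n = 3), siRNA 1 (n = 4) and siRNA 2 (n = 4). Alkbh5 and Ythdf3 stand higher with siRNA 2, with 2 of the Alkbh5 libraries at 165 and 168 CPM and 2 at 144 CPM.

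Of the readers, Ythdf3 passed the test, with siRNA 2. The YTHDF proteins bind m6A in the cytoplasm and are known for driving decay and, in some accounts, translation of the marked mRNA. Ythdf3 (ENSMUSG00000047213, chromosome 3, 16183212 to 16217037) was at 168, 157 and 152 CPM in control, at 158, 165, 174 and 165 with siRNA 1 and at 175, 177, 175 and 189 with siRNA 2. The siRNA 2 libraries were above all others, by less than 1 CPM for the nearest siRNA 1 library. For siRNA 2 the log2 fold change was 0.17, with an SE of 0.050 and an interval from 0.075 to 0.27 (adjusted p = 0.0201), a level 12.8% above control. With siRNA 1 it was 0.060 (SE 0.050, adjusted p = 0.603), and the difference between the siRNAs, 0.11, did not pass the test (SE 0.046, adjusted p = 0.131).

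The Ythdf3 call depended on the settings. It was lost with TMM factors (0.15, adjusted p = 0.0526) and with DESeq2 (0.14, adjusted p = 0.0771). It was also lost when control library 2 (0.16, adjusted p = 0.0928), control library 3 (0.14, adjusted p = 0.143) or siRNA 2 library 4 (0.15, adjusted p = 0.0721) was left out. Without the pair of siRNA 2 libraries numbered 1 and 2 it was kept (0.20, adjusted p = 0.0372).

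Ythdf1 and Ythdf2 did not pass the test. Ythdf1 (ENSMUSG00000038848, chromosome 2, 180904377 to 180920949) was at 171 to 181 CPM in control, 169 to 185 with siRNA 1 and 178 to 194 with siRNA 2, and the groups overlapped. Its log2 fold change was −0.00092 with siRNA 1 (SE 0.049, adjusted p = 0.996) and 0.065 with siRNA 2 (SE 0.048, adjusted p = 0.447). Ythdf2 (ENSMUSG00000040025, chromosome 4, 132184912 to 132212303) was at 153, 152 and 151 CPM in control, at 147, 163, 157 and 163 with siRNA 1 and at 156, 167, 154 and 163 with siRNA 2. Its siRNA 2 libraries were above the control libraries, but the log2 fold change of 0.075 (SE 0.050, interval −0.022 to 0.17, adjusted p = 0.378) did not pass the test, nor did that of 0.049 with siRNA 1 (SE 0.050, adjusted p = 0.689). Of its 75-nt words 3.23% occur in other genes, against none for Ythdf1 and Ythdf3.

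The nuclear reader Ythdc1 (ENSMUSG00000035851, chromosome 5, 86804221 to 86836659), known for roles in splicing, export and chromatin, was at 162, 151 and 148 CPM in control. It was at 156, 154, 153 and 158 CPM with siRNA 1 and at 158, 158, 168 and 173 with siRNA 2. The first control library lay within the siRNA 2 range. Its log2 fold change was 0.012 (SE 0.050, adjusted p = 0.944) with siRNA 1, which turned to −0.0085 with TMM factors and −0.012 with DESeq2, and 0.094 (SE 0.050, interval −0.0029 to 0.19, adjusted p = 0.246) with siRNA 2. Ythdc1 shares 4.94% of its 75-nt words with other genes, the most of the 10. One of these is the lincRNA Gm43055, annotated on the same strand over 631 bases, 4.62%, of the Ythdc1 exons. Gm43055 had 0 reads in every library. Ythdc2 (ENSMUSG00000034653, chromosome 18, 44827746 to 44889724) was at 39.0 to 48.1 CPM in control, 42.3 to 46.4 with siRNA 1 and 39.2 to 49.4 with siRNA 2. Its log2 fold changes were 0.045 (SE 0.077, adjusted p = 0.833) and 0.054 (SE 0.076, adjusted p = 0.729).

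Counted over the 10 genes, siRNA 1 gave 0 calls in edgeR's quasi-likelihood test, where 4.67% of all genes tested were called, 2.71% higher and 1.97% lower. At an unadjusted p under 0.05 there was 1 gene, Wtap, beside 2698 of the 16073 genes tested. With TMM factors, with the exact test of edgeR or with DESeq2, 0 genes of the 10 were called. With siRNA 2 there were 2 calls of 10, Alkbh5 and Ythdf3, both higher, where 9.72% of all genes were called, 6.17% higher and 3.55% lower. The split of directions over all genes depends on scaling: of the genes called with siRNA 1 and with siRNA 2, 57.9% and 63.4% were higher, but 46.4% and 49.8% with TMM factors and 38.2% and 42.7% with DESeq2. Between the siRNAs there was 1 call, Alkbh5, where 7.44% of all genes were called, 4.49% higher and 2.96% lower with siRNA 2. For any difference among the 3 groups there were 2 calls, Alkbh5 and Ythdf3, where 13.7% of all genes were called.

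Libraries that did not overlap were found for 1 of 10 genes with siRNA 1, Mettl3, which was higher than control. Of all genes 15.5% did not overlap, 9.28% higher and 6.23% lower. With siRNA 2 there were 3 of 10, Alkbh5, Ythdf2 and Ythdf3, all higher than control, beside 19.4% of all genes, 12.4% higher and 6.99% lower. Between the siRNAs there were 3, Alkbh5, Ythdf3 and Ythdc1, all higher with siRNA 2, beside 11.8% of all genes, 6.58% higher and 5.21% lower. The median log2 fold change of the 10 was 0.028 with siRNA 1, 0.059 with siRNA 2 and 0.028 between the siRNAs, beside 0.024, 0.029 and 0.0018 over all genes tested. With siRNA 1, 6 of 10 genes were above 0, beside 56.8% of all genes. With TMM factors or DESeq2 this was 5 of 10, while the 56.8% holds for scaling to library size only. With siRNA 2, 6 of 10 were above 0, beside 57.1% of all genes. By role, the median was −0.11 and −0.090 for the 3 writers under siRNA 1 and siRNA 2, and 0.045 and 0.075 for the 5 readers. All 5 readers were above 0 with siRNA 2, but 1 of the 5 was called.

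**Figure D3:**
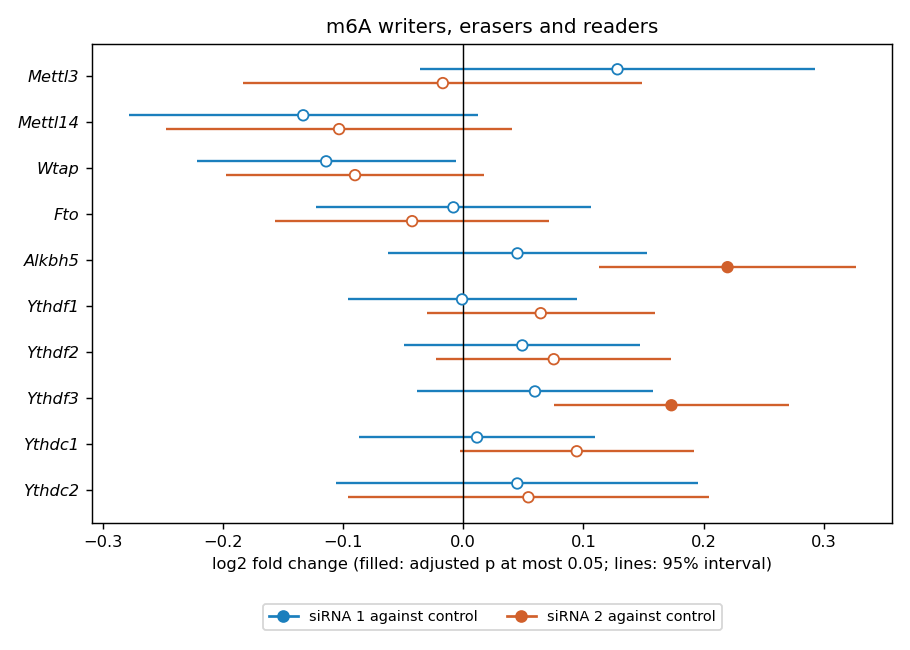
Log2 fold change from control of the 10 m6A genes with siRNA 1 (blue) and siRNA 2 (orange), with lines for the 95% interval. Filled points, Alkbh5 and Ythdf3 with siRNA 2, have an adjusted p of at most 0.05, and apart from these and Wtap with siRNA 1 each interval includes 0.

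The other genes of the pathway were taken from a list of 31 in 5 parts, all of which passed the filter. The 5 accessory subunits of the writer anchor it and guide it to its sites. None was called with siRNA 1, where 4.67% of all genes were. At an unadjusted p under 0.05 there were 0 of 5 with siRNA 1 and 3 of 5 with siRNA 2. Over the 16073 genes tested there were 2698 and 3733. With siRNA 2, where 9.72% of all genes were called, 1 of 5 was, Virma (ENSMUSG00000040720), the large scaffold subunit. It was at 98.7, 104 and 100 CPM in control, at 102, 113, 108 and 109 with siRNA 1 and at 116, 111, 114 and 115 with siRNA 2. All siRNA 2 libraries were above all control libraries. The difference from control was 0.18 on the log2 scale (SE 0.053, interval 0.073 to 0.28, adjusted p = 0.0253), and it was 0.097 for siRNA 1 (SE 0.053, adjusted p = 0.359). The call was lost with TMM factors (0.15, adjusted p = 0.0604) and DESeq2 (0.15, adjusted p = 0.103), and without control library 1 (0.16, adjusted p = 0.0968), control library 3 (0.17, adjusted p = 0.0972) or siRNA 2 library 1 (0.17, adjusted p = 0.0679), or without the pair numbered 1 and 2 (0.18, adjusted p = 0.0745).

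Rbm15 and Rbm15b, the RNA-binding adaptors of the writer, were at 0.056 and 0.092 with siRNA 1 and at 0.042 and 0.17 with siRNA 2, and Rbm15b had an adjusted p of 0.0556 with siRNA 2. Zc3h13, which helps keep the complex in the nucleus, was at 0.077 with siRNA 1 and 0.11 with siRNA 2 (adjusted p = 0.482 and 0.181). Cbll1, also called Hakai, was at −0.0031 and 0.0035. Over these 5 genes the median was 0.077 for siRNA 1 and 0.11 for siRNA 2.

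The other methyltransferases and their partners gave no call among 6 genes with either siRNA, where 4.67% and 9.72% of all genes were called. At an unadjusted p under 0.05 there was 1 gene of 6 with each siRNA, Mettl16 with siRNA 1 and Pcif1 with siRNA 2. Over the 16073 genes tested there were 2698 and 3733. Pcif1 (ENSMUSG00000039849), the m6Am enzyme named above, was at 43.5, 41.7 and 42.9 CPM in control. It was at 38.0, 43.1, 36.5 and 41.7 CPM with siRNA 1 and at 39.8, 35.9, 38.3 and 37.8 with siRNA 2. The siRNA 2 libraries were all below control and the siRNA 1 libraries overlapped it. Its log2 fold change was −0.099 (SE 0.072, adjusted p = 0.532) and −0.17 (SE 0.072, interval −0.32 to −0.031, adjusted p = 0.128), so neither passed the test. Mettl16, which methylates U6 snRNA and Mat2a mRNA, was at −0.12 with siRNA 1 (SE 0.051, adjusted p = 0.220) and −0.043 with siRNA 2. Mettl4 was at −0.13 and 0.022, and Zcchc4, which methylates the large ribosomal RNA, at 0.092 and 0.067. Mettl5 and its partner Trmt112, which methylate the small ribosomal RNA, were at −0.10 and 0.021 with siRNA 1 and at −0.038 and −0.039 with siRNA 2.

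Among 9 other proposed readers, 2 were called, both higher with siRNA 2 and neither with siRNA 1. Of all genes 6.17% were called higher with siRNA 2 and 4.67% were called with siRNA 1. Fmr1 (ENSMUSG00000000838, chromosome X, 68678541 to 68717963), which encodes the RNA-binding protein FMRP, was at 103, 99.5 and 100 CPM in control. It was at 99.3, 102, 111 and 113 CPM with siRNA 1 and at 127, 112, 115 and 126 with siRNA 2. All siRNA 2 libraries were above control, and the log2 fold change was 0.25 (SE 0.057, adjusted p = 0.00274) against 0.075 with siRNA 1 (SE 0.058, adjusted p = 0.554). The difference between the siRNAs was 0.17 (SE 0.052, adjusted p = 0.0318). That call was lost with DESeq2 (adjusted p = 0.0738) and without library 1 or 2 of siRNA 1 (adjusted p = 0.131 and 0.124) or library 1 or 4 of siRNA 2 (adjusted p = 0.131 and 0.112) or the siRNA 2 pair numbered 1 and 2 (adjusted p = 0.0814), while the call against control was kept in each of these.

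Elavl1, which encodes the RNA-stabilising protein HuR, was at 201, 195 and 199 CPM in control, at 194, 205, 207 and 212 with siRNA 1 and at 226, 222, 212 and 224 with siRNA 2. The siRNA 2 libraries were above control, and the log2 fold change was 0.16 (SE 0.046, adjusted p = 0.0228). It was not called with TMM factors (0.13, adjusted p = 0.0669) or DESeq2 (0.13, adjusted p = 0.0818), nor without control library 2 (0.15, adjusted p = 0.105), control library 3 (0.16, adjusted p = 0.0726) or siRNA 2 library 1 (0.15, adjusted p = 0.0696), nor without the siRNA 2 pair (0.14, adjusted p = 0.133). The lowest and highest of the 9 were Hnrnpc at −0.055 and Igf2bp3 at 0.12 with siRNA 1, and Rbmx at −0.11 and Fmr1 with siRNA 2. The median of the 9 was 0.045 with siRNA 1 and 0.093 with siRNA 2.

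Meioc, the partner of YTHDC2 in germ cells, had the largest log2 fold change of the list with siRNA 2. Meioc (ENSMUSG00000051455, chromosome 11, 102663716 to 102682237) was at 23.7, 24.3 and 20.9 CPM in control and at 20.8, 25.3, 20.7 and 25.7 CPM with siRNA 1. It was at 32.0, 33.3, 31.8 and 33.8 CPM with siRNA 2. The siRNA 2 libraries were above all others, by over 5 CPM, and the siRNA 1 libraries lay on both sides of control. For siRNA 2 this was 0.51 on the log2 scale, with an SE of 0.088 and an interval from 0.34 to 0.68 (adjusted p = 8.4e-05), a level 42.3% above control. For siRNA 1 it was 0.011 (SE 0.094, adjusted p = 0.97), and the siRNAs differed by 0.50 (SE 0.082, adjusted p = 5.1e-05). Both calls held in all alternatives run, at 0.45 to 0.55. Of the 7 partners of the readers Meioc was the only 1 called, where 9.72% of all genes were called with siRNA 2 and 7.44% between the siRNAs. The others reached −0.053 (Srsf10) and 0.047 (Xrn1) with siRNA 1, and the lowest with siRNA 2 was Upf1 at −0.037.

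S-adenosylmethionine is the methyl donor for m6A and for the cap methylations. Of 4 genes of its supply, 2 were called lower with siRNA 1 and 1 with siRNA 2, where 1.97% and 3.55% of all genes were called lower. Ahcy (ENSMUSG00000027597, chromosome 2, 155059310 to 155074497) encodes the enzyme that clears S-adenosylhomocysteine, the by-product that inhibits methyltransferases. It was at 88.4, 84.7 and 90.8 CPM in control, at 71.4, 68.5, 73.8 and 69.9 with siRNA 1 and at 67.2, 75.6, 68.9 and 77.5 with siRNA 2. All 8 CMTR1 siRNA libraries were below all 3 control libraries. Ahcy fell by 19.4% for siRNA 1, a log2 fold change of −0.31 (SE 0.060, adjusted p = 0.000661). It fell by 17.6% for siRNA 2, a log2 fold change of −0.28 (SE 0.059, adjusted p = 0.0013). No difference between the siRNAs was detected, at 0.032 (SE 0.057, interval −0.080 to 0.14, adjusted p = 0.815). Both calls against control held in all alternatives run. Ahcy was the only 1 of the 41 genes examined here, the 10 and the 31, that was called with both siRNAs, as were 2.16% of all genes tested.

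Mat2a (ENSMUSG00000053907, chromosome 6, 72432799 to 72439558) encodes the enzyme that makes S-adenosylmethionine. It was at 603, 563 and 552 CPM in control. With siRNA 1 it was at 477, 502, 505 and 505 CPM, all below control, and with siRNA 2 at 584, 558, 538 and 566 CPM, within the range of control but for 1 library. Its log2 fold change was −0.20 with siRNA 1 (SE 0.043, adjusted p = 0.00214) and −0.029 with siRNA 2 (SE 0.043, adjusted p = 0.741). The siRNAs differed by 0.17 (SE 0.040, adjusted p = 0.00391), a call that was lost without the pair of siRNA 2 libraries numbered 1 and 2 (0.15, adjusted p = 0.0539). The remaining genes of the supply, Mat2b and Mtr, were at 0.031 and −0.059 with siRNA 1 and at −0.077 and −0.14 with siRNA 2, and neither was called. As for Ahcy, all CMTR1 siRNA libraries were below all control libraries for Mtr. It was at 105.4 to 107.6 CPM in control, 99.9 to 104.7 with siRNA 1 and 92.1 to 100.3 with siRNA 2.

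Mat2a mRNA is itself known to be marked: METTL16 methylates hairpins in its 3′ UTR. The spliced transcripts of GENCODE M21 (GRCm38) were searched, on the strand of the RNA, for TACAGAAAA and TACAGAGAA, written as DNA, which are the letters of that target. Mat2a-202 held 6 matches, all in the 3′ UTR, of which the one nearest the coding sequence and the single one of the other spelling are shown, with the match in capitals.
Mat2a site 1, chr6:72434237-72434261, minus strand: gcgtaggtTACAGAGAAgccttcaa
Mat2a site 5, chr6:72433048-72433072, minus strand: aggtgtccTACAGAAAAaccttggg
Of 21901 protein-coding genes, each by its longest transcript, 1635 (7.5%) held at least 1 match, and Mat2a was the only 1 with 6 or more. None of the 10 writers, erasers and readers held a match, and in the list Mettl5 and Meioc held 1 each. A match describes the letters and was not tested for methylation.

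Over the 31 genes, 2 were called with siRNA 1, both lower, where 4.67% of all genes were called and 1.97% called lower. With siRNA 2, 5 were called, 4 higher and 1 lower, where 9.72% of all genes were called, 6.17% higher and 3.55% lower. Between the siRNAs 3 were called, all higher with siRNA 2, where 4.49% of all genes were called higher. The median log2 fold change of the list was 0.011 for siRNA 1, 0.022 for siRNA 2 and 0.027 between the siRNAs, beside 0.024, 0.029 and 0.0018 over all genes tested.

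**Figure D4:**
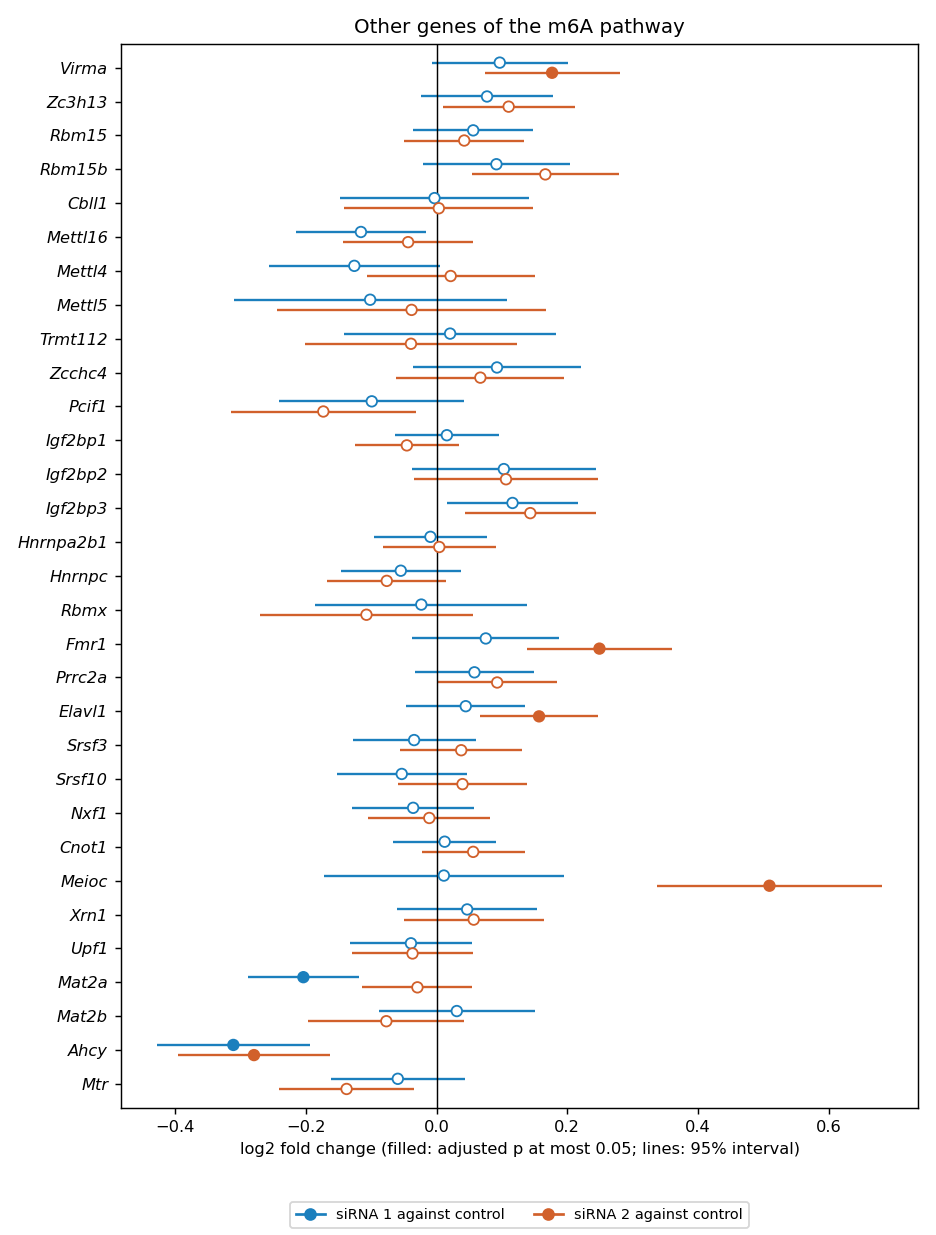
Log2 fold change from control of the 31 other genes of the m6A pathway with siRNA 1 (blue) and siRNA 2 (orange), with lines for the 95% interval. Filled points have an adjusted p of at most 0.05: Ahcy and Mat2a with siRNA 1, and Virma, Fmr1, Elavl1, Meioc and Ahcy with siRNA 2.

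**Figure D5:**
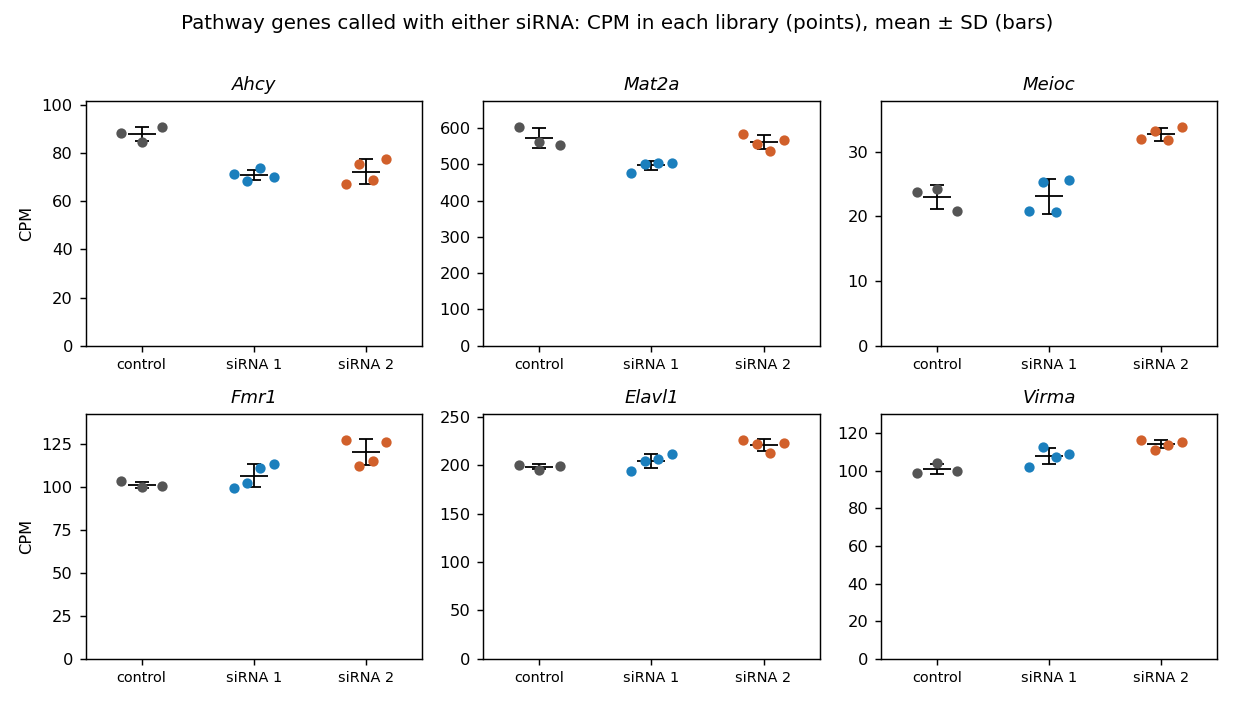
CPM of the 6 pathway genes called with at least 1 siRNA in each library, on axes that start at 0, with the mean ± SD of each group. Ahcy is lower in all 8 CMTR1 siRNA libraries, Mat2a is lower in the 4 siRNA 1 libraries, and Meioc is between 31.8 and 33.8 CPM in the 4 siRNA 2 libraries.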

How the data were processed

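Reads of 11 rRNA-depleted, directional libraries were, per the labels and the methods, checked with FastQC, trimmed with Cutadapt, mapped by STAR to the GRCm38 assembly and cleared of PCR duplicates with Picard. The authors then counted reads per gene with featureCounts and deposited raw counts for 54838 Ensembl genes, although 10 of the 11 tables end in totals laid out as by HTSeq-count, which were set aside. Tool versions, annotation release and strand setting are not given in the sources used here. Duplicate removal can lower the counts of abundant genes.

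Of the identifiers, 54809 were in GENCODE M21. CPM was computed on all counted reads. Genes above 1 CPM in at least 4 libraries (16073) entered glmQLFit and glmQLFTest of edgeR 4.0.16 (R 4.3.3) in 1 model of 3 groups, without TMM factors because the methods state library size, and were called at a Benjamini-Hochberg adjusted p of at most 0.05 over all genes. The study used the exact test, run here as an alternative beside TMM factors, DESeq2 1.42.0, filterByExpr, no filter, 2-group fits, the replicate number as a block, the longest transcript as length and each library left out. Intervals are 95% intervals from the SE on a normal scale. Within groups the chi-square per degree of freedom between libraries was 1.31 to 2.94, so no library was a copy of another.

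The genes and lists were chosen by name, with earlier results of these data known. All writers, erasers, readers, writer subunits and other methyltransferases were named, and of the other list parts those called and the lowest and highest. In counts simulated for 16073 genes (siRNA 2 against control), the test recovered 84 of 100 genes changed by 1 on the log2 scale. It recovered 13 of 100 changed by 0.2. The simulation changed 100 genes at each size, where 1562 genes were called with siRNA 2 in the data. An adjusted p depends on how many genes change, so the shares need not hold for the data. They were also not computed for the writers, erasers and readers alone, so they do not give the power for those genes. With siRNA 2 the SE of those genes ran from 0.048 (Ythdf1) to 0.085 (Mettl3) on the log2 scale.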

Additional observations from a re-analysis of the deposited data

Results flagged for a closer look

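Among the 10 m6A genes, 20 groups of 4 libraries were examined for a library far from the rest, and Ythdf3 in siRNA 2 library 4, at 189 CPM, stood apart from the other 3 by 0.831 of the range of its group. Chance alone marks about 1 group in 20 in this way. Of the 41 genes examined, 4 were called in the test of the difference between the 2 siRNAs, where 7.44% of all genes were called (edgeR, siRNA 2 minus siRNA 1 on the log2 scale): Alkbh5 by 0.17 (adjusted p = 0.0244), Fmr1 by 0.17 (adjusted p = 0.0318), Meioc by 0.50 (adjusted p = 5.1e-05) and Mat2a by 0.17 (adjusted p = 0.00391). For Alkbh5 and Meioc the siRNA 2 libraries were the higher ones and for Mat2a the siRNA 1 libraries were the lower ones. For Fmr1 the siRNA 2 libraries were above control but overlapped those of siRNA 1, the lowest at 112.3 CPM beside 112.9 for the highest of siRNA 1. The call was lost in 6 of 19 alternatives for Alkbh5, 6 of 19 for Fmr1 and 1 of 19 for Mat2a, and was kept in all 19 for Meioc.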

How the results depend on the processing

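Of the 898 alternative values computed for 58 results, 809 kept their direction and side of the threshold or, for counts and levels, stayed close, 33 lost a call, 21 changed sign and 35 moved. Single pathway genes were followed only where the main fit called them, so a call gained by another pathway gene is not in this tally. The count of called m6A genes with siRNA 1 was 0 in all alternatives. With siRNA 2 the count of 2 became 1 with TMM factors, DESeq2, the replicate block and without the pair of siRNA 2 libraries numbered 1 and 2, an alternative added after the data were seen, and was 1 to 2 with single libraries left out (1 without control 2 or 3 or siRNA 2 library 4). Between the siRNAs the count of 1 became 0 with DESeq2 and without that pair, and was 0 to 1 with single libraries left out. Among the 3 groups the count of 2 became 1 with TMM factors, DESeq2 and the replicate block and 0 without the pair, and was 1 to 2 with single libraries left out (1 without control 2 or 3, siRNA 1 library 2 or siRNA 2 library 1 or 4). The 5 calls of the pathway list with siRNA 2 became 3 with DESeq2 and without the pair, and 3 to 6 with single libraries left out (3 without control 3 or siRNA 2 library 1). They became 4 with TMM factors, where both Virma and Elavl1 lost their calls. They stayed at 5 with the replicate block and without control 2, where Elavl1 lost its call. Each of these settings thus also called a gene of the list that the main fit did not call. Over all genes DESeq2 called 958 with siRNA 2 against 1562, 740 against 1196 between the siRNAs and 1441 against 2208 among the 3 groups, and without the pair the counts were 738, 630 and 1485. Over all genes, siRNA 1 gave 751 calls, and 355 without control 2, 447 without control 3 and 424 without siRNA 1 library 2. For siRNA 2 there were 914 without control 2, 807 without control 3 and 1015 without siRNA 2 library 1. Between the siRNAs there were 738 and 724 without siRNA 1 library 1 or 2 and 757 without siRNA 2 library 1. Other fits gave more calls: 850 for siRNA 1 without siRNA 1 library 3, and 1667 for siRNA 2 and 1374 between the siRNAs without siRNA 2 library 3. Fits with fewer libraries have less power, but neither this nor any other cause of these changes was tested.

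All sign changes were of values near 0 without a call. With siRNA 1, Ythdf1 became 0.0062 with the replicate block, and Ythdc1 became −0.0085 with TMM factors, −0.012 with DESeq2 and −0.0051 with the replicate block. Without the pair, Fto became 0.023 against control and 0.032 between the siRNAs. Leaving out single libraries gave, with siRNA 1, −0.032 to 0.024 for Fto, −0.026 to 0.020 for Ythdf1, −0.015 to 0.051 for Ythdc1 and −0.026 to 0.12 for Ythdc2. With siRNA 2 it gave −0.052 to 0.033 for Mettl3 and −0.017 to 0.13 for Ythdc2. Between the siRNAs it gave −0.0020 to 0.070 for Mettl14, −0.0046 to 0.044 for Ythdf2 and −0.036 to 0.077 for Ythdc2. TMM factors moved the median of all genes by −0.020 and −0.025 for the siRNAs, and DESeq2 by −0.024 and −0.029.

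No pairing of libraries between groups by replicate number was detected, and the labels do not state one. Deviations from the group means correlated at −0.052 to 0.055 over 10 pairs with the same number (mean 0.0087) and at a mean of −0.0029 over the 30 other pairs. With the replicate block Ythdf3 had an adjusted p of 0.051 and Elavl1 of 0.0557 with siRNA 2. With 171 to 229 reads, Mettl3 was the least deeply counted of the 10 genes, and its interval with siRNA 1 reached 0.29 on the log2 scale.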
